A study of Mus musculus with 8 samples.

Results

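The genes that encode collagens, laminins and the proteins that join them in the extracellular matrix were followed as a set of 63 among the 55291 gene symbols measured in the outer medullary collecting duct of the mouse. Members were chosen by symbol and not by a cut on any measured value, though with earlier results of these data known. They were all 44 chains named Col, a number, a and a number, all 11 laminin chains (Lama, Lamb and Lamc), and 8 single genes: Nid1, Nid2, Hspg2, Agrn, Fn1, Sparc, Npnt and Tinagl1. By role, 25 of them belong to the basement membrane: 6 collagen IV chains, 11 laminin chains and 8 linkers and proteoglycans. The others were 11 fibrillar collagens, 6 collagen VI chains, 9 fibril-associated (FACIT) collagens, 6 anchoring or network collagens, 4 transmembrane collagens, and the matrix glycoproteins Fn1 and Sparc.

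RNA was taken from ducts dissected out of kidneys treated with liberase, an enzyme mix that contains collagenase. All mice were wild type and of the inbred strain C57BL/6J, and they differed in diet, which for 3 days held a normal 0.3% of salt or a high 3%. For every library 100 to 120 tubules of 1 mouse were pooled, so that each of the 4 replicates of a diet stands for a mouse. The labels do not state age or sex. Libraries are named by diet and by the number in the deposited column name, which was 1, 2, 3 and 6 under the normal diet and 2, 3, 4 and 6 under the salt-rich diet, and per-library values are listed in that order throughout.

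A basement membrane is the thin sheet of matrix on which an epithelium rests. Collagen IV chains assemble into a covalent network and laminin trimers of an alpha, a beta and a gamma chain form a second network that cells bind through integrins and dystroglycan, while nidogens, perlecan (Hspg2) and agrin (Agrn) tie the networks together. Epithelial cells of kidney tubules make much of their own basement membrane. Fibrillar collagens, collagen VI and fibronectin (Fn1) are mainly products of interstitial fibroblasts and related cells.

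Library totals ranged from 64.8 to 94.1 M estimated counts. The 10 principal-cell markers (led by Aqp2 and Hsd11b2) and the 10 intercalated-cell markers (led by Slc4a1 and Rhcg) were present in all libraries, with mean log2(CPM + 1) values of 9.89 to 10.15 and 9.04 to 9.32. The principal-cell mean was higher and the intercalated-cell mean lower in each high-salt library than in any normal-salt library. Diet means under normal and high salt were 9.95 and 10.08 for the former and 9.29 and 9.07 for the latter. Single markers went both ways. The fitted change was above 0 in 6 and below 0 in 4 principal-cell markers, and above 0 in 2 and below 0 in 8 intercalated-cell markers. The part of these shifts in the results was not tested. CPM is counts scaled to the same total in every library. Markers of other structures were also present. For the thick ascending limb (led by Umod and Slc12a1) the summed level ran from 605 to 2146 CPM under normal salt and from 99.0 to 2756 CPM under high salt, the highest value being in high-salt library 6. Endothelial markers (led by Plvap and Eng) summed to 260 to 408 and 242 to 384 CPM. Thin-limb markers (led by Cldn4) summed to 401 to 703 and 542 to 868 CPM. Podocyte markers (led by Podxl and Synpo) summed to at most 43.4 CPM, and proximal tubule markers (led by Slc27a2 and Lrp2) to at most 64.0 CPM with Slc5a12 at 0 in all 8. Normal-salt library 1 stood apart: its mean over 16 fibroblast and pericyte markers (led by Notch3 and Cspg4; members of the set excluded) was 2.38 against 1.61 to 1.81 in the other normal-salt libraries and 1.87 to 2.01 under high salt, although single markers of this list went both ways. Its mean over 10 macrophage markers (led by Ptprc and Csf1r) was 2.67 against 1.02 to 1.72 in the other 7 libraries. Results that rest on this library are given with and without it.

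Of the 63 members, 41 reached 1 CPM in at least 4 libraries and were tested. Among the basement membrane genes these were all 6 collagen IV chains, 8 of 11 laminin chains and all 8 linkers. The other 22 members stayed below the filter. They included Lama2, Lamb3 and Lamc3, the transmembrane collagens Col13a1, Col17a1, Col23a1 and Col25a1, and cartilage collagens such as Col9a1, Col9a2, Col9a3 and Col10a1. The highest single value among these 22 was 4.00 CPM, for Lama2 in normal-salt library 1, and Col19a1 was at 0 in all 8 libraries.

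Levels of different genes are compared in TPM, which takes transcript length into account. Nephronectin (Npnt), a ligand of integrin alpha8 beta1 made by the epithelium of the ureteric tree, was the most abundant member, at 867 ± 126 TPM under normal salt and 757 ± 58.7 TPM under high salt (SD, n = 4 each). It supplied 36.9 ± 1.84% of the summed basement membrane TPM under normal salt and 34.0 ± 0.732% under high salt. Collagen XVIII (Col18a1), a heparan sulfate proteoglycan of basement membranes whose end fragment is endostatin, came next at 413 ± 59.2 and 446 ± 50.7 TPM. Npnt exceeded Col18a1 in every library.

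A middle tier followed: Tinagl1 (a secreted protein of tubular basement membranes) at 151 ± 32.2 TPM under normal salt, Lamb1 at 119 ± 25.7, Col4a1 at 109 ± 12.8, Agrn at 108 ± 20.1, Col4a4 at 107 ± 28.8, Col26a1 at 88.3 ± 13.4, Lama5 at 85.1 ± 15.5 and Hspg2 at 81.7 ± 8.95 TPM. Neighbours in this order were not separated by their spread. Lamc1 (49.7 ± 6.52), Lamb2 (46.5 ± 11.2), Col4a2 (40.7 ± 5.21), Col4a3 (38.8 ± 11.2) and Col4a5 (34.98 ± 7.58 TPM) formed a lower tier. Nidogens were scarce: Nid1, the usual bridge between laminin and collagen IV, was at 1.58 ± 0.558 TPM and Nid2 at 1.36 ± 0.323 TPM.

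Summed over all 25 genes, basement membrane transcripts made up 1977, 2561, 2468 and 2383 TPM in the normal-salt libraries and 2294, 2360, 2146 and 2088 TPM in the high-salt libraries. The 11 fibrillar collagens summed to 106, 34.1, 31.8 and 34.6 TPM and to 32.8, 49.0, 23.8 and 54.2 TPM. Basement membrane transcripts thus outweighed fibrillar ones by 68.9 to 77.6 times in normal-salt libraries 2, 3 and 6, by 38.5 to 90.3 times under high salt, and by 18.6 times in normal-salt library 1. Within the fibrillar sums, Col27a1 gave 15.7, 15.7, 11.8 and 24.8 TPM under normal salt. Col1a1, Col1a2 and Col3a1 together gave 85.3, 13.8, 15.4 and 7.21 TPM there, and 17.2, 35.1, 11.7 and 34.7 TPM under high salt.

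**Figure D1:**
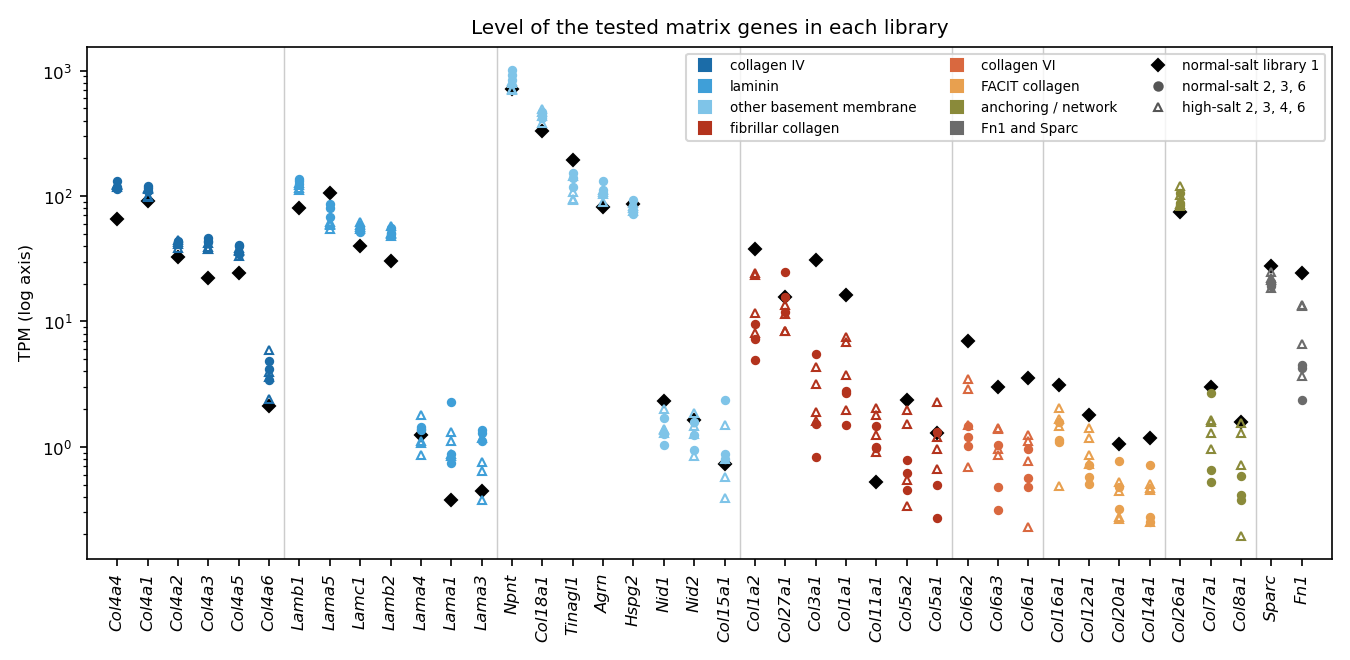
TPM (log axis) of tested members in each library, grouped and coloured by role; black diamonds are normal-salt library 1, filled circles the other 3 normal-salt libraries and open triangles the 4 high-salt libraries. Npnt and Col18a1 lie highest, and library 1 lies above the other libraries in most fibrillar and collagen VI genes and below them in most collagen IV genes.

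Across diets no member passed the test. Of the 41 tested, 0 had an adjusted p under 0.05 (limma on log2(CPM + 1), Benjamini-Hochberg adjustment over 13401 genes), where 0.0821% of all genes did (11 genes), and limma-voom on recovered counts also called 0. At an unadjusted p under 0.05 there were 3 members, Tinagl1 and Col15a1 among them, all lower under high salt. That is 7.32% of the 41 against 10.3% of all genes (5.95% higher and 4.37% lower). With voom they were 4, these 3 and Npnt, also lower. Fitted values were above 0 in 20 members and below 0 in 21 (52.8% of all genes were above 0). The median log2 fold change was -0.0014 for the 22 basement membrane genes, 0.21 for the 7 fibrillar collagens and 0.012 for all genes. In bulk RNA of this kind fewer cells of a type and less RNA per cell cannot be told apart.

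The labels do not say that equal library numbers pair mice. Deviations from the diet means correlated weakly between equal numbers (0.145, 0.337 and 0.162 for 2, 3 and 6). Whether this exceeds chance was not tested, so the pairing is an assumption drawn from the same data. A fit on these 6 libraries with the number as a block was run too. It called 37 genes in all (0.276%) and 0 members. It put 14 members under an unadjusted p of 0.05, 10 higher and 4 lower, where 13.2% of all genes were under it (7.51% higher and 5.69% lower). The lower members included Npnt, Col27a1 and Lama3, the last chosen after its values were seen. The same 6 libraries without the block gave 12 such members, where 10.5% of all genes were under it.

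None of the 6 collagen IV chains passed the test, and outside normal-salt library 1 the abundant chains varied little between libraries of either diet. Col4a1 and Col4a2 encode the chains of the network found in nearly all basement membranes, and Col4a3, Col4a4 and Col4a5 encode the network known from the glomerulus and parts of the tubule, whose mutations cause Alport syndrome. The genes sit in head-to-head pairs. In GENCODE M21 (mm10) Col4a1 (chr8:11198423-11312826, minus strand) and Col4a2 (chr8:11312805-11449287, plus strand) have starts 21 bases apart, so that their ends overlap. Col4a3 (chr1:82586921-82722059, plus strand) and Col4a4 (chr1:82448423-82586849, minus strand) start 72 bases apart, and Col4a5 and Col4a6 on the X chromosome start 1309 bases apart. Because the pair on chromosome 8 overlaps and the strand setting of the counting is not given in the sources used here, a few reads at the shared start could be counted to either gene.

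The shared start of the pair on chromosome 8 is shown because both genes read out of it. The windows run from 250 bases before to 50 bases after each gene's start in RefSeq (GRCm38.p6, the same coordinates as mm10), each on its own strand and 5′ to 3′, and capitals mark the 78 bases (chr8:11312777-11312854) that both windows hold. They cover chr8:11312777-11313076 (minus strand) for Col4a1 and chr8:11312555-11312854 (plus strand) for Col4a2.
Col4a1: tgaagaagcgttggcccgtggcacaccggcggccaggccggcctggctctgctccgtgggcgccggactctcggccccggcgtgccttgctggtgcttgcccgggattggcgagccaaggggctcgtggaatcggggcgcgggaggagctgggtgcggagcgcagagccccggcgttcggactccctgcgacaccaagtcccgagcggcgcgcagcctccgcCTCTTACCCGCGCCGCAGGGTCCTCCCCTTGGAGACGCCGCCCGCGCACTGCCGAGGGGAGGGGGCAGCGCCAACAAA
Col4a2: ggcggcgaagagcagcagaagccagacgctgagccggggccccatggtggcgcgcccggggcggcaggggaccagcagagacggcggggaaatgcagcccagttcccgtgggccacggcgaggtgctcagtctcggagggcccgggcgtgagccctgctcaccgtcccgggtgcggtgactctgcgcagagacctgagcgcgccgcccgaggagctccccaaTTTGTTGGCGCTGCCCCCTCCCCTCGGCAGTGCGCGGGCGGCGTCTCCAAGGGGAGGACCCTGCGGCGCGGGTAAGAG

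Col4a1 was read at 364, 462, 443 and 487 CPM under normal salt and at 454, 460.3, 407 and 411 CPM under high salt. Every high-salt value lay within the normal-salt range, whose lower end is library 1. High-salt libraries 4 and 6 lay below normal-salt libraries 2, 3 and 6. Col4a2 was at 142, 175, 177 and 165 CPM and at 157, 164, 154 and 162 CPM. Its diets overlapped through normal-salt library 1 alone, every high-salt value lying below those of normal-salt libraries 2, 3 and 6. The ratio of Col4a1 to Col4a2 in TPM was 2.67 ± 0.118 in normal-salt libraries and 2.56 ± 0.203 in high-salt libraries, so that Col4a1 was read above its partner throughout. The log2 fold changes of Col4a1 and Col4a2 were -0.01 (SE 0.11, 95% interval -0.25 to 0.22) and -0.04 (SE 0.09, interval -0.24 to 0.15). Without normal-salt library 1 they were -0.10 (SE 0.08, adjusted p = 0.608, limma) and -0.11 (SE 0.06, adjusted p = 0.48).

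Col4a3 had 135, 239, 228 and 221 CPM under normal salt and 194, 224, 205 and 196 CPM under high salt. Col4a4 had 457, 817, 739 and 695 CPM and then 761, 798, 776 and 744 CPM. Col4a5 had 81.2, 146, 128 and 135 CPM and then 139.7, 135, 136 and 128 CPM. In all 3 chains normal-salt library 1 was the lowest of the 8 and the other libraries lay close together. Col4a4 was read above its partner in every library, at 2.79 ± 0.153 times its TPM under normal salt and 3.12 ± 0.104 times under high salt. The log2 fold change of Col4a4 came to 0.22 (SE 0.16, adjusted p = 0.703, limma) and became 0.04 (SE 0.08) without normal-salt library 1. That of Col4a3 went from 0.02 (SE 0.16) to -0.16 (SE 0.07, adjusted p = 0.371), and that of Col4a5 from 0.17 (SE 0.16) to -0.01 (SE 0.07). Col4a6, the partner of Col4a5, was scarce, between 10.2 and 23.0 CPM, and Col4a5 stood at 6.49 to 13.9 times its TPM.

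None of the 8 tested laminin chains passed the test. Lama5, the alpha chain of the main laminins of mature kidney epithelium, differed between scales. It had 236, 554, 459 and 515 CPM under normal salt and 476, 467, 464 and 429 CPM under high salt, a mean of 441 ± 142 and 459 ± 20.7 CPM. On that scale the log2 fold change was 0.13 (SE 0.23), or -0.15 (SE 0.08) without normal-salt library 1. In TPM the same gene ran from 68.2 to 105 under normal salt and from 54.6 to 61.8 under high salt, without overlap, and library 1 was the highest instead of the lowest of the 8. The log2 fold change on log2(TPM + 1) was -0.51 (SE 0.13, unadjusted p = 0.00223, adjusted p = 0.225, limma). TPM depends on the length assigned to a gene's transcripts in each library, and the part of this in the contrast between scales was not tested.

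The beta and gamma partners varied less. Lamb1 had 310.4, 461, 485 and 443 CPM and then 429, 448, 418 and 381 CPM (log2 fold change -0.0014, SE 0.14, or -0.14, SE 0.08, without normal-salt library 1). Lamb2 had 101, 145, 142 and 141 CPM and then 138, 124, 126 and 137 CPM (-0.0014, SE 0.12, or -0.12, SE 0.07, without that library). Lamc1, the gamma chain of most laminins, had 132, 242, 237 and 237 CPM and then 256, 238, 283 and 237 CPM (0.29, SE 0.18, or 0.08, SE 0.08, without normal-salt library 1). In each of these genes normal-salt library 1 was the lowest of the 8, and the diets overlapped. For Lamb2 they overlapped through library 1 alone, every high-salt value lying below those of normal-salt libraries 2, 3 and 6. Lamb1 was read above Lamb2 in every library, at 2.57 ± 0.205 and 2.33 ± 0.302 times its TPM. Lama1, an alpha chain of developing epithelia that persists in some tubule segments, was low, at 2.68, 5.43, 6.33 and 4.48 CPM and then 8.16, 5.55, 5.41 and 6.97 CPM. It had the largest fitted log2 fold change of the laminins, 0.42 (SE 0.22, adjusted p = 0.562). Lama3 and Lama4 lay between 1.96 and 6.96 CPM. In TPM under normal salt Lama3 was at 1.05 ± 0.415 and the untested Lamb3 at 0.382 ± 0.359.

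Among linkers and proteoglycans, Npnt was at 2303, 2669, 2493 and 2151 CPM under normal salt and at 2063, 2161, 1919.8 and 1871 CPM under high salt. The ranges overlapped only at the edge, where high-salt library 3 exceeded normal-salt library 6. The log2 fold change was -0.26 (SE 0.12, 95% interval -0.53 to 0.01, unadjusted p = 0.0542, adjusted p = 0.495), and in the blocked fit it was -0.26 with an adjusted p of 0.363. As the most abundant member, Npnt (chr3:132881745-132950291, minus strand) is shown with the window around its upstream RefSeq start (chr3:132950242-132950541, minus strand, GRCm38.p6), and the abundant fibrillar gene Col1a2 with its window (chr6:4505368-4505667, plus strand) for contrast. Capitals mark matches, on either strand, to GGGCGG (the GC box), CCAAT (the CCAAT box) or TATAAA (the TATA box), the 3 motifs searched, none of which overlaps another match here.
Npnt: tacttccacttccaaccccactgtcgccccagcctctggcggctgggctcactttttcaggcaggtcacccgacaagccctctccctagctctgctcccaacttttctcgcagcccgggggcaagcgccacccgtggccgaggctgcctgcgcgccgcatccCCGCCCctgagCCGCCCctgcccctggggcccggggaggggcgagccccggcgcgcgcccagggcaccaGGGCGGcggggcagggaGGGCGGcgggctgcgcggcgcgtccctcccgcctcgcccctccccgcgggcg
Col1a2: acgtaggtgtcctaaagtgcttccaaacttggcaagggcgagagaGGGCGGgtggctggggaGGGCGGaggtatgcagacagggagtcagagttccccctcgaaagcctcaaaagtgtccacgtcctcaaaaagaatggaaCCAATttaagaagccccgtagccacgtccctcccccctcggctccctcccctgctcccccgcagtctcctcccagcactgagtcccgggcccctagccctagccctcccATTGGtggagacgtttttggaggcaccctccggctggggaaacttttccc

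The Npnt window shown holds 4 matches to GGGCGG and none to the other motifs, and the Col1a2 window 2 to GGGCGG and 2 to CCAAT. The window of the downstream Npnt start (chr3:132949765-132950064) holds 0 matches to each motif. A promoter window was found for 46 of the 63 members, 53 windows in all. GGGCGG was in 32 of these 53 and in 35.7% of the 32851 windows of all genes, CCAAT in 15 of 53 and 37.4%, and TATAAA in 5 of 53 and 13.6%. TATAAA was in 0 of the 22 windows of basement membrane members and in 2 of the 8 windows of fibrillar collagens. A match is a description of these letters and not evidence of binding.

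Tinagl1 (chr4:130164454-130175122, minus strand) had 222, 132, 160.1 and 162 CPM under normal salt and 108, 125, 107 and 166 CPM under high salt. The 3 lowest values were high-salt ones, but high-salt library 6 lay among the normal-salt libraries. The fitted log2 fold change was -0.41 (SE 0.17, unadjusted p = 0.0367, adjusted p = 0.445, limma) and -0.28 (SE 0.15, unadjusted p = 0.0912) without normal-salt library 1, which was the highest. Col15a1, the relative of Col18a1 that links basement membrane to interstitial fibrils, was at 2.76, 2.62, 2.92 and 3.73 CPM and then 1.84, 1.93, 1.34 and 2.73 CPM. The diets overlapped by high-salt library 6 alone, and the log2 fold change was -0.45 (SE 0.19, unadjusted p = 0.0373, adjusted p = 0.446).

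The large proteoglycans gave no such pattern. Hspg2, which encodes perlecan, had 277, 603, 559 and 542 CPM and then 654, 653, 608 and 562 CPM. Its log2 fold change of 0.38 (SE 0.21) became 0.12 (SE 0.08) without normal-salt library 1, and in TPM the means were 81.7 ± 8.95 and 81.7 ± 5.11. Agrn had 215, 389.5, 365 and 421 CPM and then 389, 373, 379.9 and 323 CPM (log2 fold change 0.12, SE 0.19, or -0.10, SE 0.09, without normal-salt library 1). Col18a1 had 1158, 1512, 1436 and 1334 CPM and then 1533, 1592, 1449 and 1281 CPM (0.11, SE 0.12, or 0.03, SE 0.10, without that library). In all 3 the lowest library of the 8 was normal-salt library 1. Nid1 and Nid2 had log2 fold changes of -0.19 (SE 0.23) and -0.03 (SE 0.23).

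**Figure D2:**
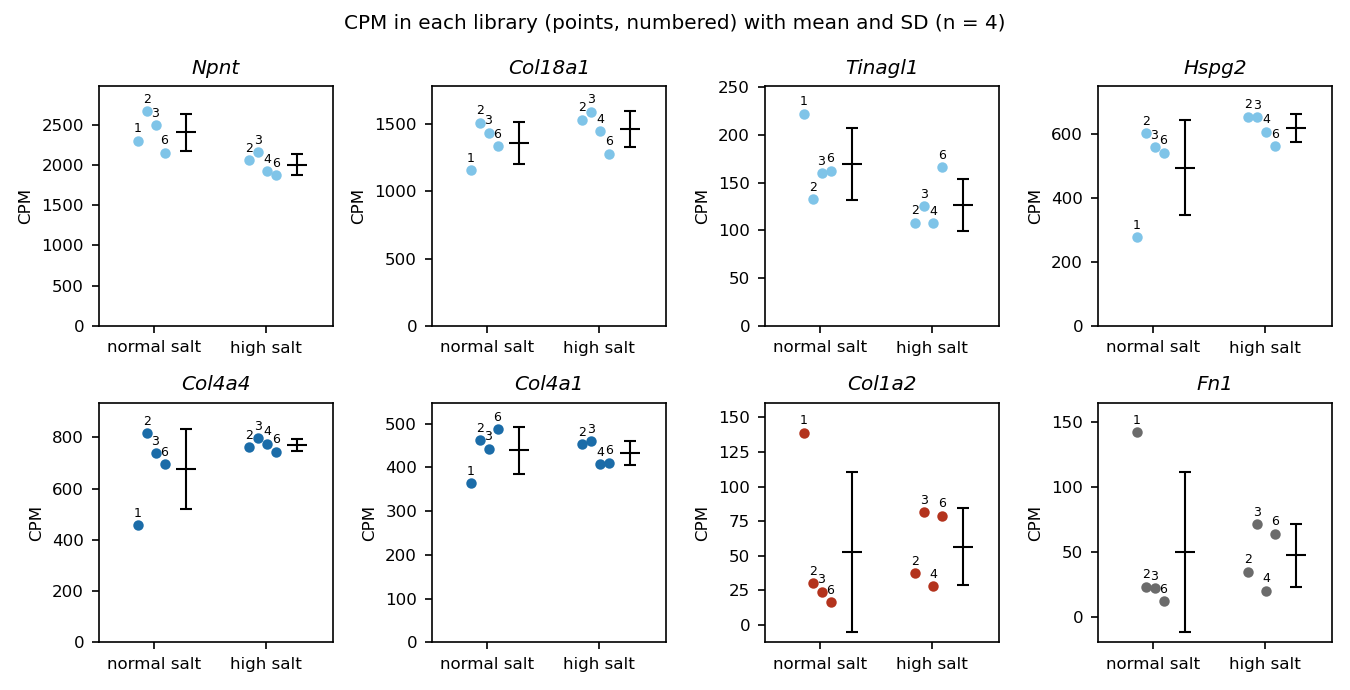
CPM of 8 members in each library (points, numbered by library) with the mean and SD of each diet (bars, n = 4), on linear axes of different height. The diets overlap in every panel, if only at the edge for Npnt, and library 1 of the normal-salt diet lies far from the other 3 for Hspg2, Col4a4, Col1a2 and Fn1.

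Interstitial matrix genes were mostly scarce, and none of them passed the test. Their values spread widely between libraries. The median SE of the log2 fold change was 0.545 for the 7 fibrillar collagens, 0.177 for the 22 basement membrane genes and 0.141 for all genes. Col1a2, a chain of collagen I, had 139, 30.2, 24.0 and 16.6 CPM under normal salt and 37.4, 81.7, 28.01 and 78.9 CPM under high salt. Col1a1, the other chain, had 57.7, 10.6, 10.5 and 5.63 CPM and then 11.4, 29.6, 7.75 and 27.1 CPM. Both were highest in normal-salt library 1 and next highest in high-salt libraries 3 and 6. Fn1 was highest in the same 3 libraries, with 142, 23.2, 22.0 and 11.8 CPM and then 34.6, 71.1, 20.02 and 64.1 CPM. Sparc, a collagen-binding glycoprotein, had 39.6, 23.4, 25.2 and 26.0 CPM and then 28.8, 27.6, 23.9 and 27.5 CPM, so that library 1 alone lay far from the rest.

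With all 8 libraries the log2 fold changes of these genes were 0.49 (SE 0.58) for Col1a2, 0.21 (SE 0.62) for Col1a1, 0.45 (SE 0.65) for Fn1 and -0.05 (SE 0.16) for Sparc. Without normal-salt library 1 they were 1.12 (SE 0.36, adjusted p = 0.214), 0.86 (SE 0.42, adjusted p = 0.407), 1.17 (SE 0.40, adjusted p = 0.24) and 0.11 (SE 0.10, adjusted p = 0.67, limma). Col3a1, which was chosen after seeing its value in library 1, was at 59.3, 4.61, 6.97 and 2.82 CPM and then 6.62, 11.1, 5.34 and 14.3 CPM. Its fitted value went from -0.05 (SE 0.71) to 0.81 (SE 0.33) without that library. In the blocked fit the smallest adjusted p of any member was 0.0754, for Col6a3 (log2 fold change 1.2), and Fn1 had 0.0791 (1.52). Both are above the threshold, and Col6a3 was also chosen after seeing its values.

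Col27a1, a fibrillar collagen that is expressed in some epithelia as well as cartilage, did not follow collagen I. It had 51.2, 57.1, 45.0 and 97.4 CPM and then 48.8, 34.2, 33.0 and 55.7 CPM, with a log2 fold change of -0.51 (SE 0.24, unadjusted p = 0.0591, adjusted p = 0.505). Col11a1, a minor chain of fibrils, had 1.28, 4.49, 4.55 and 6.53 CPM and then 8.19, 5.68, 9.38 and 4.08 CPM (0.66, SE 0.35, adjusted p = 0.569), and library 1 was its lowest. Col6a1, a chain of the beaded filaments of collagen VI, had 10.5, 1.46, 2.56 and 1.23 CPM and then 2.03, 3.30, 0.624 and 3.01 CPM (-0.35, SE 0.50). The FACIT collagen Col16a1 had 9.70, 2.30, 3.61 and 4.57 CPM and then 2.60, 4.48, 1.42 and 5.46 CPM (-0.39, SE 0.38). Col7a1, the collagen of anchoring fibrils, had 14.3, 5.71, 4.05 and 3.20 CPM and then 6.16, 10.1, 4.56 and 10.4 CPM (0.30, SE 0.38, or 0.69, SE 0.27, without library 1). Col26a1 was in TPM the most abundant member outside the basement membrane list, with 119, 111, 125 and 136 CPM and then 126, 165, 125 and 123 CPM (0.12, SE 0.11).

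**Figure D3:**
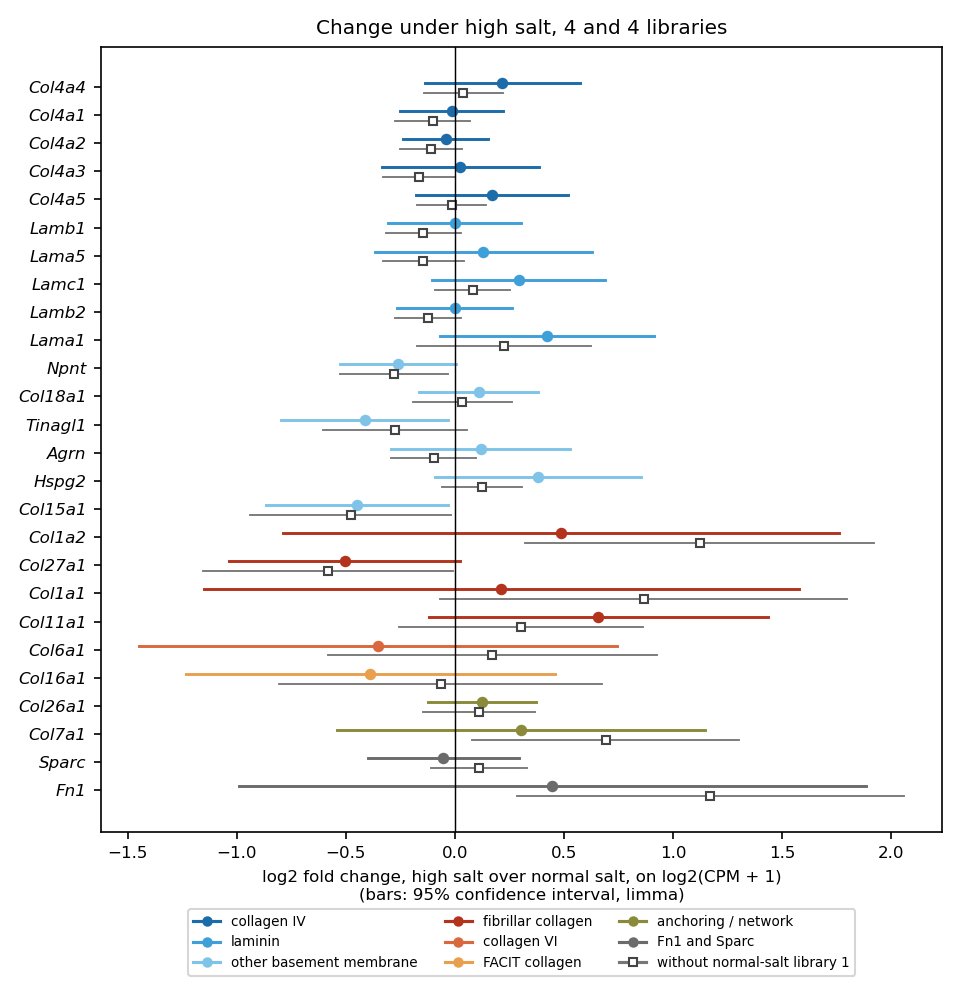
Log2 fold change of high over normal salt on the log2(CPM + 1) scale for members named by rule, with 95% confidence intervals from limma; filled circles are the fit to all 8 libraries, coloured by role, and open squares the fit without normal-salt library 1. In the full fit the intervals of Tinagl1 and Col15a1 lie below 0, and those of Col1a1, Col1a2 and Fn1 are wide and move up without library 1.

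Leaving out normal-salt library 1 kept 0 members past the adjusted threshold (50 genes in all, 0.373%). It raised the members at an unadjusted p under 0.05 from 3 to 10, where 13.5% of all genes were (7.81% higher and 5.64% lower). The 6 higher members were Col1a2, Col3a1, Col6a3, Col7a1, Col12a1 (added after its values were seen) and Fn1, and the 4 lower ones included Npnt, Col15a1 and Col27a1. The fibrillar median log2 fold change went from 0.21 to 0.75 and the basement membrane median from -0.0014 to -0.11, while that of all genes was 0.0064. In that fit 6 of 7 fibrillar collagens and 7 of 22 basement membrane genes were above 0, against 51.4% of all genes.

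In CPM, normal-salt library 1 read lower than the rest of its diet in collagen IV and most laminin chains, and higher in most interstitial matrix genes. It was the lowest of the 4 in 16 of 22 basement membrane genes (36.5% of all genes), and the lowest of all 8 libraries in 15 (27.7%). The linkers and proteoglycans were divided, library 1 being the lowest of its diet in 3 of 8 and the highest in 3. It was the highest of the 4 in 5 of 7 fibrillar collagens, 3 of 3 collagen VI chains and 3 of 4 FACIT collagens, against 35% of all genes, and in these 11 genes also the highest of all 8 libraries (25.3% of all genes). Its CPM divided by the mean of normal-salt libraries 2, 3 and 6 had a median of 0.603 over collagen IV chains, 0.612 over laminins, 0.919 over linkers and proteoglycans, 5.89 over fibrillar collagens, 6.36 over collagen VI and 0.984 over all genes. By gene the ratio reached 12.4 for Col3a1, 7.49 for Fn1, 6.46 for Col1a1 and 5.89 for Col1a2. Marker lists of other cell types moved in this library as well. Of the 16 fibroblast and pericyte markers 9 passed the filter and none was at 0 in all libraries; library 1 was the highest of its diet in 4 of the 9 and the lowest in 4, with ratios of 0.304 to 8.62 and a median of 1.16. Their summed level was 152 CPM against 104 to 108 CPM in the other normal-salt libraries and 107 to 154 CPM under high salt. Of the macrophage markers 7 of 10 passed the filter, and library 1 was the highest of its diet in 6 of the 7 (median ratio 5.66), with a sum of 65.2 against 20.2 to 25.2 CPM and 20.7 to 32.8 CPM under high salt. It was the highest in 7 of 9 thick ascending limb markers (median ratio 1.64). It was the lowest in 10 of 13 endothelial markers (0.655) and in 5 of 5 thin-limb markers (0.343). Their part in the ratios was not tested.

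**Figure D4:**
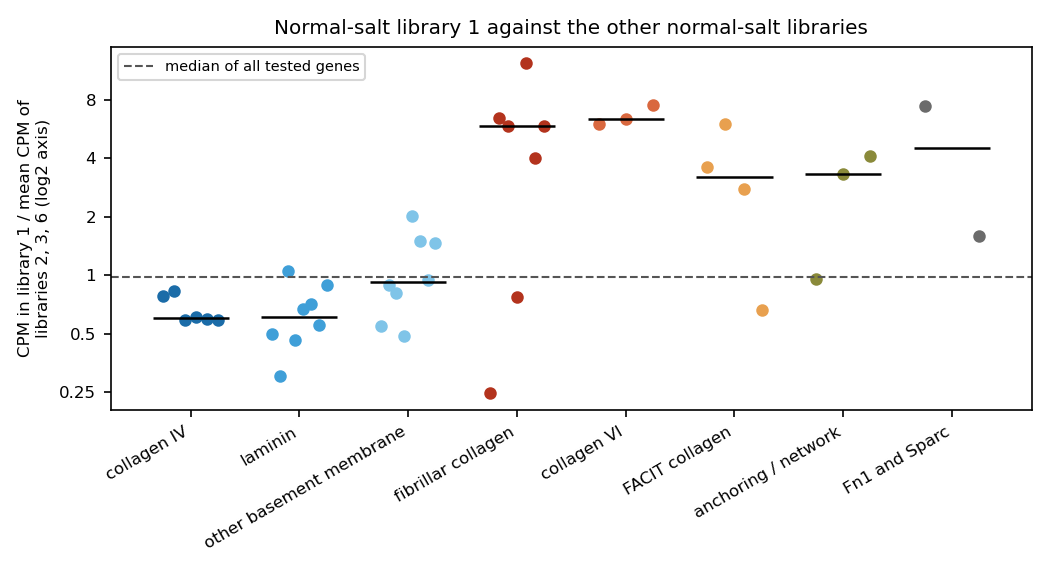
CPM in normal-salt library 1 divided by the mean CPM of normal-salt libraries 2, 3 and 6 (log2 axis), for each tested member by role (points) with the median of each role (bars); the dashed line is the median of all tested genes, 0.984. Collagen IV and laminin points lie mostly below the line and fibrillar and collagen VI points mostly above it.

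Transcript length moved with the same library. Over all tested genes the median ratio of library 1 to the other normal-salt libraries went from 1.45 in genes whose longest transcript is under 1000 bases to 0.675 in those of 8000 bases and over, through 1.23, 1.02, 0.850 and 0.742 in the classes between (1000 to 2000, 2000 to 4000, 4000 to 6000 and 6000 to 8000 bases). In high-salt library 6 the same ratio against its diet stayed between 0.992 and 1.03. Basement membrane genes are long, with a median longest transcript of 6493 bases against 3288 for all genes. Divided by the median of their own length class, their ratios in library 1 had a median of 0.888, and 13 of 22 were below 1. Of all genes, 6595 of 13193 were below 1, a share that dividing by class medians sets. For collagen IV the median against its class was 0.888, for laminins 0.768 and for linkers 1.08. Fibrillar collagens are as long (6625 bases), and against their class the median was 6.93. In TPM, 17 of 22 basement membrane genes had a ratio of library 1 to the other normal-salt libraries below 1 (median 0.753). So did 9477 of 13193 genes (median 0.831). The part of length in the lower basement membrane values of library 1 was not tested beyond these comparisons.

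**Figure D5:**
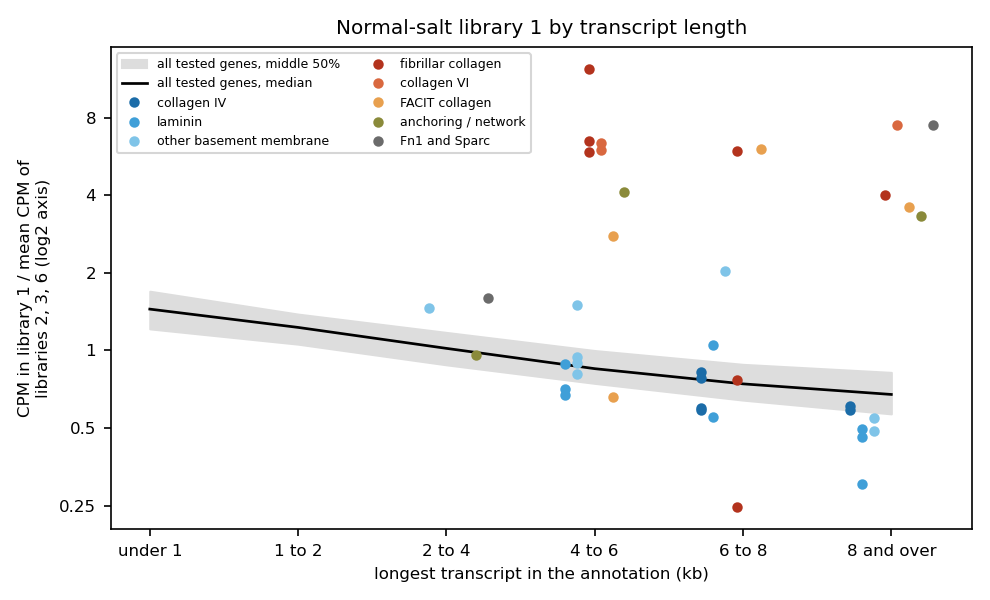
Ratio of CPM in normal-salt library 1 to the mean of normal-salt libraries 2, 3 and 6 (log2 axis) against class of longest transcript; the line and band are the median and middle 50% of all tested genes, and points are members, set side by side by role within a class. The line runs from 1.45 to 0.675, most basement membrane points lie near or below it, and fibrillar and collagen VI points lie far above it.

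Genes that act with the members gave the following counts, here and in the next paragraph. Over all genes 10.3% had an unadjusted p under 0.05 in the same limma fit (5.95% higher and 4.37% lower). Of all 13401 genes, 490 were higher and 368 lower under high salt without overlap of the diets. Among 18 tested of 20 matrix receptors, 0 passed limma's adjusted threshold and 3 had an unadjusted p under 0.05, all higher under high salt. Itga3, the alpha subunit of a laminin-binding integrin, had 186, 336, 274 and 245 CPM and then 375, 364, 379.9 and 301 CPM (a log2 fold change of 0.47 with an SE of 0.16 and an adjusted p of 0.331). Dag1, dystroglycan, averaged 564 ± 118 CPM under normal and 709.9 ± 82.7 CPM under high salt (0.35, SE 0.16, adjusted p = 0.479). Itgb1, the common beta subunit, had 331, 378, 380.4 and 336 CPM and then 403, 396, 427 and 399 CPM, without overlap (0.19, SE 0.09, adjusted p = 0.48). In the 10 adhesion adaptors 0 passed and 1 had an unadjusted p under 0.05: Cd151, a tetraspanin that binds laminin receptors, at 192 ± 18.9 and 159 ± 7.56 CPM, lower without overlap (-0.26, SE 0.09, adjusted p = 0.331). The other 2 with the smallest p in that list were Pxn (-0.21, SE 0.10) and Tln1 (0.22, SE 0.14), which link integrins to actin.

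Of 19 tested of 24 genes of collagen synthesis, 0 passed and 1 had an unadjusted p under 0.05. It was Pcolce, an enhancer of procollagen cleavage, with 119 ± 24.6 and 149 ± 23.1 CPM (0.33, SE 0.15, adjusted p = 0.477, limma). Crtap (-0.30, SE 0.19) and P4ha2 (0.36, SE 0.24), both involved in prolyl hydroxylation, came next. Of 10 tested of 17 other basement membrane genes, 0 passed, 1 was higher and 3 were lower at an unadjusted p under 0.05. Ntn4, a netrin that caps laminin networks, had 250, 378, 329.6 and 286 CPM and then 374, 383, 529 and 431 CPM (0.47, SE 0.15, adjusted p = 0.279). The lower genes were Smoc2 (-0.73, SE 0.25, adjusted p = 0.327), Ltbp4 (-0.44, SE 0.16, adjusted p = 0.349) and Tinag (-0.67, SE 0.27, adjusted p = 0.414), a relative of Tinagl1 that was added after its values were seen. Of 12 tested of 18 remodelling genes, 0 passed and 1 had an unadjusted p under 0.05, the secreted protease gene Adamts1, at 6.06, 10.6, 5.95 and 8.21 CPM and then 13.6, 9.81, 34.4 and 18.4 CPM (1.09, SE 0.32, adjusted p = 0.225). Timp3, a protease inhibitor bound to matrix, was at 598 ± 38.3 and 736 ± 121 CPM (0.28, SE 0.13, adjusted p = 0.489), and Mmp15 had a log2 fold change of -0.37 (SE 0.23).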

How the data were processed

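RNA-seq of 8 libraries, 4 per diet, was used as deposited. Per the submitters' processing notes the build was mm10 and the tools included FastQC and Trimmomatic. The aligner is not given in the sources used here, nor are the counting program, its strand setting and the annotation. The labels' protocols name a stranded mRNA kit.

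The authors deposited a table of log2 CPM values and a table of TPM values. The former share a floor of -5.29 in all libraries, so each log2 value was raised as a power of 2, the floor's own power was subtracted and libraries were scaled to 1000000. The planned test assumed linear CPM and was kept on these values. CPM steps gave estimated counts, of which 84.4% to 86.1% were whole within 0.01, so a count model was not the main test. With 64.8 to 94.1 M per library, 1 count is worth 0.0106 to 0.0154 CPM.

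Genes with at least 1 CPM in at least 4 of 8 libraries (13401) were compared on log2(CPM + 1), pseudocount 1, with limma 3.58.1 in R 4.3.3 (lmFit, eBayes with trend, two-sided, Benjamini-Hochberg over all genes, an adjusted p under 0.05 being a call). On this scale fold changes understate the change of low genes. The test was checked on simulated counts that had the same dispersion for every gene and no outlying library. The check therefore does not cover genes that spread as the fibrillar ones did.

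Equal library numbers were taken as pairs from the data, not the labels: deviations from the diet means correlated at 0.145, 0.337 and 0.162 for numbers 2, 3 and 6, and the fit with the number as a block used these 6 libraries.

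Members, gene lists and tests were chosen with earlier results of these data known. Values in every library are given for members whose mean reached 20 CPM in either diet, an unadjusted p under 0.05, or the largest fitted change of their role group, and for each further list the called genes plus up to 3 with the smallest unadjusted p. Some genes of these lists are counted but not reported here by name. Positions came from GENCODE M21 (63 of 63 members) and promoter windows from RefSeq (46 of 63).

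Alternatives covered pseudocount, filter, scaling, TPM, moderation, library weights, voom, marker covariates, each library left out, and the block. The fit without the block on the same 6 libraries was added after seeing the data.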

Additional observations from a re-analysis of the deposited data

Results flagged for a closer look

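In 54 groups of 4 libraries (27 members named by rule, 2 diets), the library farthest out was compared with the spread of the others. The gap to the nearest other library as a share of the whole range exceeded Dixon's 95% critical value in 8 groups. Chance gives about 1 in 20 for a single group of normally distributed values. The groups share the same libraries and are not independent, so the 8 cannot be set against that rate. In 7 of the 8 the library was normal-salt library 1.

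It was the highest of its diet for 5 genes. Col1a2 stood at 138.9 CPM there against 16.6 to 30.2 CPM in the other 3 libraries, and Col1a1 at 57.68 against 5.63 to 10.6 CPM. Fn1 was at 142.3 against 11.8 to 23.2 CPM, Col6a1 at 10.5 against 1.23 to 2.56 CPM, and Sparc at 39.6 against 23.4 to 26.0 CPM. For 2 laminin chains it was the lowest, Lamc1 at 132.4 against 237 to 242 CPM and Lamb2 at 101.2 against 141 to 145 CPM. The remaining case was Col26a1 in high-salt library 3, at 164.7 CPM against 123 to 126 CPM in the other high-salt libraries.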

How the results depend on the processing

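The number of genes called over the whole table (11, limma) moved with most settings: 0 without a filter on low values (1933 at an unadjusted p under 0.05), 18 with TMM factors, 5 on TPM, 22 with robust moderation, 129 with library quality weights, and 454, 78 and 41 with the marker mean of fibroblasts and pericytes, of endothelium or of thick ascending limb as a covariate. With single libraries left out it ran from 0 to 50. It was 50 without normal-salt library 1, 0 without normal-salt library 3 (where 1231 had an unadjusted p under 0.05), 1 when normal-salt library 6 was left out, and 5, 1 and 0 without high-salt libraries 2, 3 and 4 (924 at an unadjusted p under 0.05 in the last). The replicate block gave 37, and the same 6 libraries without it 23.

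Of the members, 0 were called in all settings but the fibroblast and pericyte covariate, which called 2, Hspg2 (log2 fold change 0.49, adjusted p = 0.0254, limma) and Lamc1 (0.38, adjusted p = 0.0238, limma), where their adjusted p otherwise ranged up to 0.996 and 0.932. The 3 members at an unadjusted p under 0.05 (10.3% of all genes) became 1 without a filter (6.37% of all genes). With the fibroblast, endothelial and thick ascending limb covariates they were 13, 8 and 2 (20.1%, 14.9% and 8.07%). Under the replicate block there were 14 (13.2%), in the same 6 libraries unblocked 12 (10.5%), and with single libraries left out 1 to 10. They were 10 without normal-salt library 1, 6 without high-salt library 6, and 1 without high-salt library 2, 3 or 4. The median log2 fold change ran from -0.11 to 0.05 over the libraries left out for basement membrane genes and from -0.18 to 0.75 for fibrillar collagens, so that both changed sign. Of the 27 named members, 12 kept their sign under all of the 22 alternatives in which they could be fitted and 15 did not. The cause of these shifts was not tested. With 4 libraries a diet, the spread of fibrillar genes limits what can be detected.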
